A study of Mus musculus with 2 samples.

Results

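The 250 cells described here come from an EL1 pancreatic tumour library. They scored highest there for S100g, Thbs1 and 5 further genes, among them trypsinogen-like genes and a phospholipase of pancreatic juice. They were selected on their measured values, as the highest scores among 975 filtered cells of that library, and so make up 25.6% of them. The score was the mean over S100g, Thbs1, 1810009J06Rik, Pla2g1b, Gm2663, Myo5c and Hsd17b13 of log(1 + counts per 10000), in cells with at least 500 genes, at least 5000 unique molecular identifiers (UMIs, 1 for each captured RNA molecule) and at most 20% mitochondrial UMIs. The library held 1621 deposited barcodes, of the 3109 in both libraries of the study. The other 725 filtered EL1 cells, called the remaining cells below, served as the comparison. Because the 7 genes defined the members and cells of 1 library are not replicates, every difference between members and remaining cells is a description and carries no test.

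EL1 mice (FVB/N-EL1-Luc/EL1-TAg) express the SV40 large T antigen and firefly luciferase, each from a rodent elastase I promoter, which is active in acinar cells. WTg mice carry these transgenes and also the Mettl3 open reading frame under the chimeric CAG promoter, introduced in C57BL/6 mice and then crossed with EL1. The study asked what raised Mettl3, the catalytic subunit of the m6A RNA methyltransferase, does in such tumours. Both libraries came from primary pancreas tumour cells of mice at 6 weeks of age, labelled as epithelial cells and dissociated with collagenase D and DNase I. There was 1 library per genotype, the number and sex of the animals are not stated, and strain background, genotype and library cannot be told apart. Neither the T antigen nor luciferase is a feature of the count matrix, so the tumour identity of single cells was not checked.

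Acinar cells are the exocrine cells of the pancreas. They make inactive digestive enzymes such as trypsinogens, procarboxypeptidases and proelastases, fold them in a large endoplasmic reticulum, pack them into zymogen granules and release them on a calcium signal. Trypsinogen is the zymogen whose active form switches on the others, and acinar cells make Spink1, a trypsin inhibitor, alongside it. In the mouse the trypsinogens are encoded by a family of related genes in tandem on chromosome 6, some of them near-identical.

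The filtered EL1 cells had a median of 30009 UMIs and the 748 filtered WTg cells 39184.5. The members were deeper than the remaining cells, with medians of 39410 and 26621 UMIs per cell and 5371 and 5046 genes per cell. Their median mitochondrial share was 3.64%, against 4.30%. Scrublet called 6 EL1 doublets, 3 of them members. The libraries shared 15 cell barcodes, and 14 of these were kept EL1 cells, 9 of them members. These were deep cells of 127067 to 228500 UMIs whose namesakes in WTg held 500 to 880 UMIs, with 97.9% to 100% of the genes of each namesake also found in the EL1 cell. None of those WTg namesakes passed the filter, and the 9 members held 11.6% of all member UMIs. Leaving out these cells from both EL1 groups moved the log2 ratios of the 7 score genes and the 15 highest other genes by at most 0.24, for Prss3 from 2.18 to 2.42.

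The score fell without a gap. The highest member had 3.22, the median member 2.33, the cell ranked 250 had 2.05857 and the first cell outside had 2.05855. A total of 115 EL1 cells lay within 0.1 of that limit, so the members are the upper end of a range and not a separate group of cells. The remaining cells had a median of 1.23. In WTg the median was 0.621, the highest cell reached 2.59 and 6 cells scored at or above the EL1 limit.

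**Figure D1:**
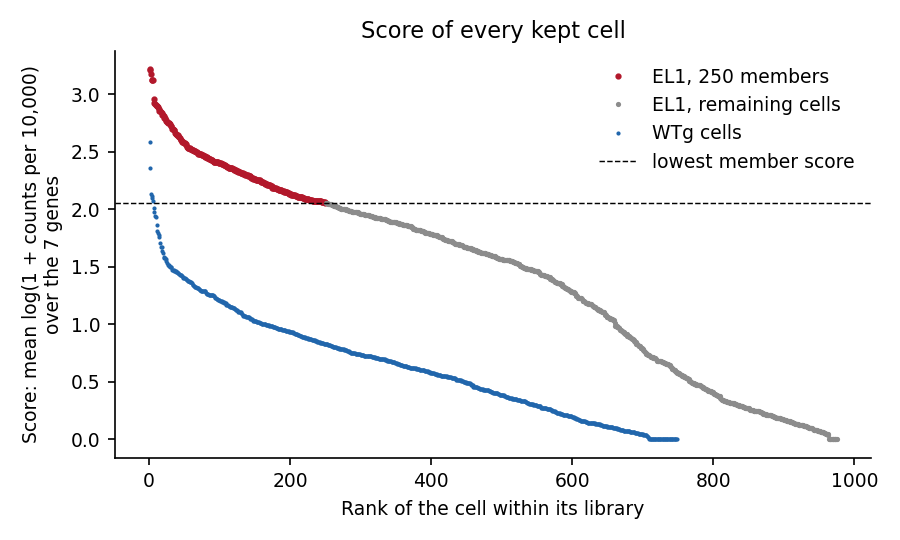
Score of each filtered cell (vertical axis, mean log(1 + counts per 10000) over the 7 genes) against its rank in its own library, with the 250 EL1 members in red, the remaining EL1 cells in grey, WTg cells in blue and the lowest member score as a dashed line. The EL1 curve passes the limit of 2.05857 without a step, and 6 WTg cells lie at or above it.

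Of the 7 genes, S100g differed most between members and remaining cells. S100g encodes calbindin-D9k, a small cytosolic calcium-binding protein. It lies at chrX:162961992-162964599 on the minus strand (GRCm38). Its level was 239 CPM, the counts scaled to the summed UMIs of a group, in the members and 9.75 CPM in the remaining cells, a log2 ratio of 4.61 (95% interval 4.42 to 4.81). All intervals given here are exact and cover counting error only. Single members ranged from 0 through a median of 68.2 to 4435 CPM, while the median remaining cell had 0 and the highest had 1090 CPM. S100g UMIs were found in 181 of the 250 members and in 76 of the 725 remaining cells, and both groups therefore held cells with and without it.

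Thbs1, which encodes thrombospondin 1, a secreted matrix glycoprotein that can activate latent TGFβ, came next. It lies at chr2:118111876-118127133 on the plus strand. It stood at 412 CPM in members and 55.7 CPM in remaining cells, a log2 ratio of 2.89 (2.80 to 2.97). Thbs1 UMIs were found in 161 members. The highest member had 4694 CPM and the highest remaining cell 3438 CPM, so the ranges overlapped widely. Beyond the members, levels went down with the score that uses them. In order of score, the next 250, the following 250 and the last 225 cells had 23.1, 2.53 and 0.452 CPM of S100g, and 92.8, 36.4 and 29.1 CPM of Thbs1.

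Hsd17b13, an enzyme of lipid droplets, had 682 CPM in members and 133 CPM in remaining cells, a log2 ratio of 2.36. Pla2g1b, the secreted phospholipase A2 of pancreatic juice, had 771 and 225 CPM, a ratio of 1.77. The trypsinogen-like genes 1810009J06Rik and Gm2663 were by far the most abundant of the 7. They stood at 25906 and 18882 CPM in members against 8346 and 6771 CPM in remaining cells, with log2 ratios of 1.63 and 1.48. Both were detected in all 250 members. Myo5c, a class V myosin motor of exocrine gland cells, differed least, with 88.7 CPM in members and 60.8 CPM in remaining cells and a log2 ratio of 0.55 (0.43 to 0.66).

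Because deeper cells show more genes, detection was compared after thinning every cell to 5000 UMIs. S100g was then found in 40.4% of members (exact interval 34.3% to 46.8%) and 3.72% of remaining cells. For Thbs1 the shares were 45.2% and 8.28%, for Hsd17b13 88.4% and 31.4%, and for Pla2g1b 78.0% and 29.7%. Free RNA in the droplets was gauged in the 22 EL1 cells with at least 0.5% of their UMIs from immune, endothelial or fibroblast markers, which had a median of 23218.5 UMIs and held no member. Among these, 0 of 22 had a thinned S100g or Pla2g1b UMI, which allows a share of up to 15.4% by the exact interval. Thbs1 was found in 7 of them, and as its level in remaining cells was highest, at 178 CPM, in a cluster led by Lyz2, Apoe and C1qb, these cells are no gauge of free Thbs1 RNA. In the same cells 1810009J06Rik was found in 7, Gm2663 in 4 and Try5 in 19, so for the abundant trypsinogens the levels and not the shares of cells are informative.

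**Figure D2:**
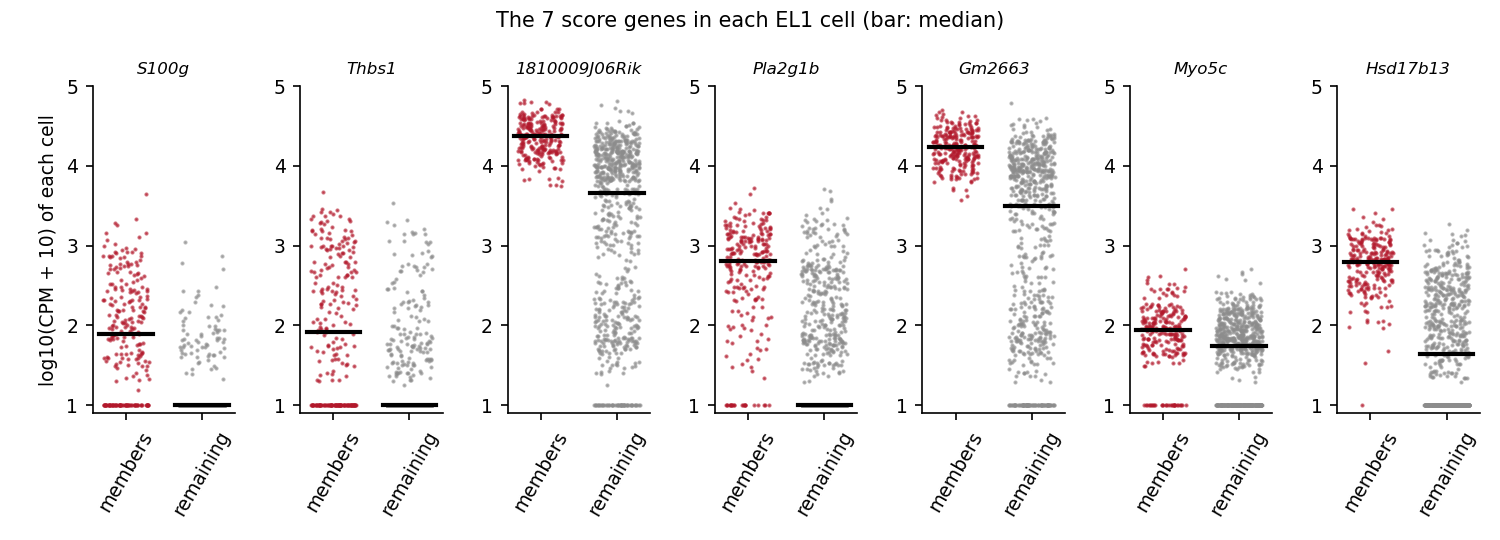
Level of each of the 7 score genes in every EL1 cell, as log10(CPM + 10), for the 250 members (red) and the 725 remaining cells (grey), with a black bar at the median. S100g and Thbs1 have a median of 0 CPM in remaining cells and of 68.2 and 72.8 CPM in members, and every gene overlaps between the groups.

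The members did not all carry the same combination. All 7 genes were detected in 103 members, 6 in 93, 5 in 44 and 4 in 10. Among remaining cells, 14 of 725 had all 7. S100g and Thbs1 occurred together in 119 members, S100g alone in 62, Thbs1 alone in 42 and neither in 27, so 10.8% of the members had neither. At 5000 UMIs per cell, both were seen in 45 members and in 0 of the 725 remaining cells.

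Within the 250 members S100g and Thbs1 levels were unrelated, with a Pearson r of -0.02, against 0.24 over all 975 EL1 cells. The trypsinogen-like pair Gm2663 and 1810009J06Rik had r of 0.82 within the members. Pla2g1b ran against 1810009J06Rik (r of -0.32) and Gm2663 (-0.31) there, although over all EL1 cells the values were 0.35 and 0.33. These correlations are across cells of 1 library that share depth and composition, and the members were chosen on the mean of these genes.

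Among genes that the score did not use, 47 of 9614 with at least 200 UMIs (0.489%) were at least 2-fold higher in members and 578 (6.01%) at least 2-fold lower. Acinar, granule and score genes made up 31.7% of the members' UMIs and 16.6% of those in remaining cells. The median log2 ratio over all genes was -0.31 in CPM and -0.09 with acinar and granule genes left out of the totals. With those totals, 72 genes were higher and 390 lower.

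Trypsinogens led the higher genes. The 9 trypsinogen-like genes outside the score gave 10.5% of all UMIs of the members and 2.85% in remaining cells, and with the score genes 1810009J06Rik and Gm2663, on which the members were chosen, the shares were 15.01% and 4.36%. In single members the share of the 9 ran from 0.885% through a median of 8.40% to 31.8%, and in remaining cells from 0% through 2.04% to 26.1%. Every member thus had RNA of these 9 genes, and the groups overlapped. Try5 was the most abundant gene of the family at 67367 CPM in members and 14712 CPM in remaining cells, a log2 ratio of 2.20 (2.19 to 2.20). Prss3 had the next ratio, 2.18, at 1462 and 323 CPM, but 5 cells held 36.0% of its member UMIs. Prss2 stood at 32988 and 11705 CPM (1.49), Try10 at 2424 and 877 CPM (1.47), Gm10334 at 665 and 295 CPM (1.17) and Try4 at 256 and 116 CPM (1.14).

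The family did not move as one. 2210010C04Rik was lower in members, with 91.0 CPM against 393 CPM and a log2 ratio of -2.11. Prss1 had 22.4 and 43.6 CPM (-0.96), although with each cell weighted equally its ratio was -0.43, and Gm5771 had 13.8 and 14.8 CPM (-0.11, interval -0.37 to 0.15). Levels of single trypsinogens are uncertain, since 3′ reads of close copies can be counted for the wrong gene or dropped. Over the last 300 bases of their transcripts Gm2663 and 1810009J06Rik were 96.4% identical, Try5 and Try4 96.3%, and Prss1 and Gm10334 93.4%. Other pairs were less alike, down to 38.5% for Prss3 and 1810009J06Rik.

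The promoters of this locus are shown because neighbouring copies of it lay on both sides of the comparison. RefSeq promoter windows (GRCm38.p6, 250 bases before to 50 after each start) were matched for 8 of the 11 trypsinogen-like genes. They were searched on both strands for CACCTG, an E-box of the kind bound by basic helix-loop-helix factors such as the acinar factor Ptf1a. It occurred in 8 of 8, in 3 of the 10 matched windows of the other highest genes, and in 20.2% of all 32851 windows. The family's windows are related by descent and are not independent. The 250 bases before the start are printed 5′ to 3′ with the E-box in capitals (CACCTG or its reverse complement CAGGTG), first for Prss2 at chr6:41521526-41521775 (plus strand), Gm2663 at chr6:40999480-40999729 (minus strand) and Prss3 at chr6:41377614-41377863 (minus strand), which were higher in members, then for Prss1 at chr6:41458680-41458929 (plus strand) and 2210010C04Rik at chr6:41035510-41035759 (minus strand), which were not.
Prss2: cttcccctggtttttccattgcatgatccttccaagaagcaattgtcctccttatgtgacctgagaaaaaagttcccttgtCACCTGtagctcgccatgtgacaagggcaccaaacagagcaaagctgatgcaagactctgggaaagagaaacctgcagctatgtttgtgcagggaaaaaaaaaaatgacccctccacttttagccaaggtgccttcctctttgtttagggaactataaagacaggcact
Gm2663: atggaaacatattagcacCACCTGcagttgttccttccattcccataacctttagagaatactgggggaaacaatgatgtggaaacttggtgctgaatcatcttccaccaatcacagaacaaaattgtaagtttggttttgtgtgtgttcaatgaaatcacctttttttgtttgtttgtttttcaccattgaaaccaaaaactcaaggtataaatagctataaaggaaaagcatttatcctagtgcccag
Prss3: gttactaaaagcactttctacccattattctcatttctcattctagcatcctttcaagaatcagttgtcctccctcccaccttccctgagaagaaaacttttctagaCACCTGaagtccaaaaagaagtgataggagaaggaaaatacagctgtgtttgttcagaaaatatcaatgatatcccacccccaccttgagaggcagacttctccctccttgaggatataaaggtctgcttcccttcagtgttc
Prss1: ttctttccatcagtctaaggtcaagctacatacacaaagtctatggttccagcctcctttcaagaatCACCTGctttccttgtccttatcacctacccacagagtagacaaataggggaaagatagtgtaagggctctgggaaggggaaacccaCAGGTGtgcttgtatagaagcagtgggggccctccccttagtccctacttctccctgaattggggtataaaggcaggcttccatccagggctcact
2210010C04Rik: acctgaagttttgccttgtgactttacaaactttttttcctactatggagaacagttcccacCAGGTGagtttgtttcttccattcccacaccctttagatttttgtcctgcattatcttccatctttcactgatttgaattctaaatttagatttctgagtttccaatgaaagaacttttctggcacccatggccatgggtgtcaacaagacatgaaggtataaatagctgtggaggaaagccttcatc
The E-box began 169 bases before the start in Prss2, 232 in Gm2663, 143 in Prss3 and 188 in 2210010C04Rik, and Prss1 had 1 at 183 and 1 at 96 bases before it. It thus stood in genes that were higher and in genes that were not. The match describes these letters only and does not show binding.

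Over the whole acinar enzyme list, 24 genes had enough UMIs. Of these, 6 were at least 2-fold higher in members, 3 lower and 15 between, beside 0.489% higher and 6.01% lower of all genes. The median log2 ratio was 0.35 where the median of all genes was -0.31. All 6 higher genes were the trypsinogens named above. The other abundant enzymes were also above the remaining cells, but by less than 2-fold. Ctrb1, a chymotrypsinogen, had 31250 and 19549 CPM (0.68), the elastase Cela2a 23103 and 13711 CPM (0.75), the procarboxypeptidase Cpa1 22011 and 13056 CPM (0.75) and Cpb1 20242 and 11085 CPM (0.87). Some enzymes of fat and starch digestion hardly differed, while Pnliprp2, given below, was lower and the score gene Pla2g1b was higher. Clps, the colipase, had 12196 and 11740 CPM (0.05), Cel, the bile salt-dependent lipase, 3725 and 4791 CPM (-0.36), and the amylase Amy2a5 237 and 245 CPM (-0.05). The 3 lower genes, named after their values were seen, were 2210010C04Rik, the lipase-related Pnliprp2 at 6.45 and 30.4 CPM and the chymotrypsin-like Ctrl at 0.54 and 21.2 CPM. In the members alone 21 of the 24 met the 200-UMI minimum, and of these only 2210010C04Rik was lower. Pnliprp2 and Ctrl reached it through the remaining cells, which favours a low ratio.

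**Figure D3:**
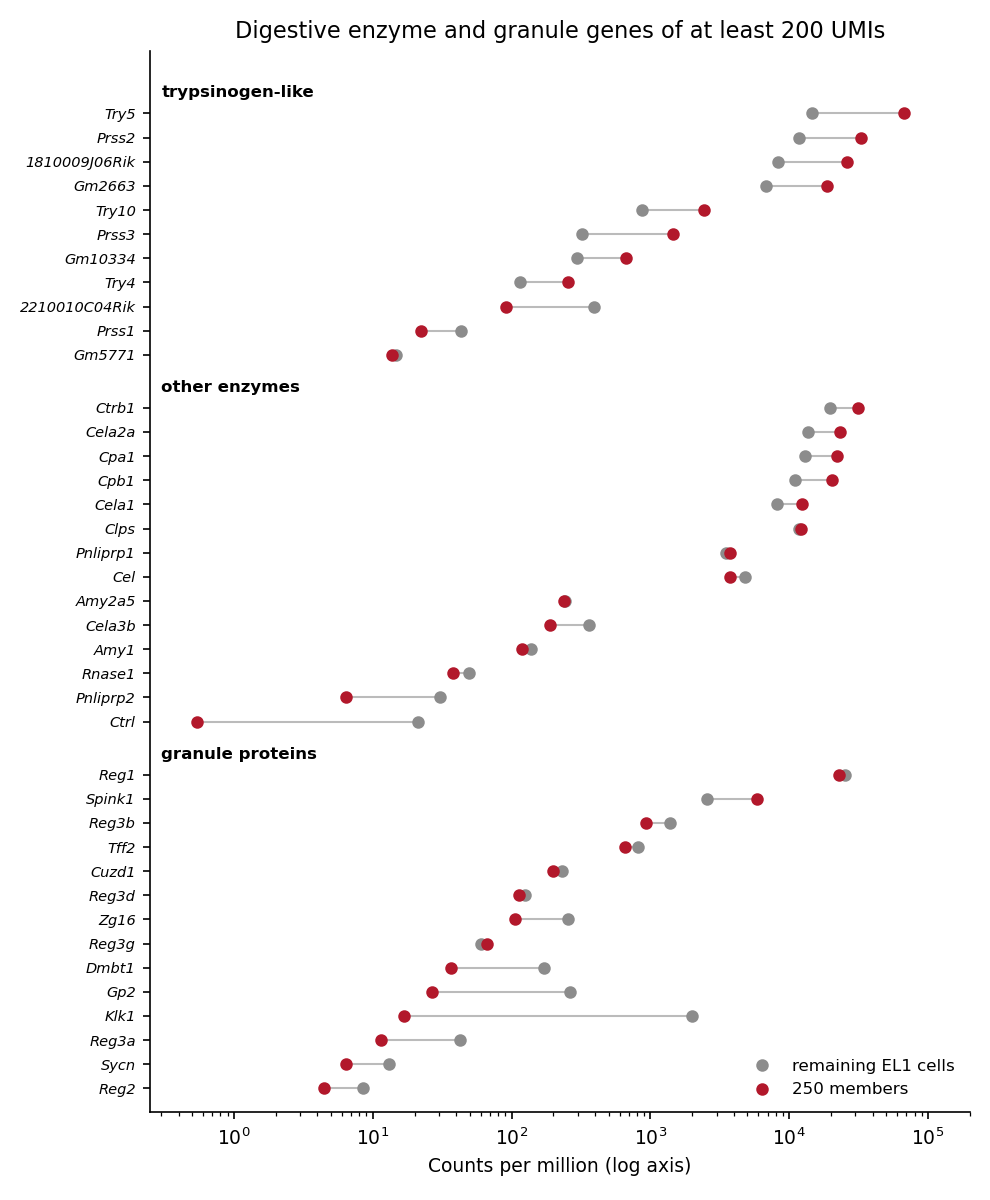
CPM of digestive enzyme and granule genes with at least 200 UMIs (log axis), in the 250 members (red) and the remaining EL1 cells (grey), joined by a line and grouped as trypsinogen-like genes, other enzymes and granule proteins. Try5 rises from 14712 to 67367 CPM while Klk1 falls from 1989 to 16.9 CPM.

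The zymogen granule and its other cargo leaned the other way. Of 14 genes, 1 was at least 2-fold higher, 6 were lower and 7 between, beside 0.489% higher and 6.01% lower of all genes. Their median log2 ratio was -0.75. The 200-UMI minimum was met in the members alone by 11 of the 14, and 4 of these 11 were lower. The other lower genes reached it through the remaining cells, which favours a low ratio. The higher gene was Spink1, the trypsin inhibitor, at 5827 and 2574 CPM (1.18). Reg1, a regenerating-family protein and the most abundant of the list, had 22694 and 25105 CPM (-0.15). The 6 lower genes, again named after their values were seen, were the tissue kallikrein Klk1 (16.9 and 1989 CPM), the granule membrane protein Gp2 (26.9 and 266 CPM), Dmbt1, Reg3a, the granule lectin Zg16 (107 and 254 CPM) and the granule protein Sycn. Zg16 was under 2-fold with each cell weighted equally (-0.97), and so was Sycn without enzymes in the totals (-0.79).

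The rest of the secretory machinery differed little. Over all genes 0.489% were at least 2-fold higher and 6.01% lower, so counts of 0 in lists this short are near those shares. Of 8 acinar transcription factors with enough UMIs, 0 were higher and 1 was lower. That gene was Ptf1a, the basic helix-loop-helix factor of acinar identity, at 30.6 and 64.9 CPM (-1.09, but -0.65 with each cell weighted equally). Xbp1, a regulator of the secretory endoplasmic reticulum, had 409 and 568 CPM (-0.47), Rbpjl, the partner of Ptf1a, 107 and 140 CPM (-0.39), and Bhlha15, or Mist1, 40.7 and 46.0 CPM (-0.18). Of 17 exocytosis genes, 0 were higher and 0 lower, with a median of -0.20. Of 21 genes of protein folding in the endoplasmic reticulum, 0 were higher and 0 lower, with a median of -0.27. Pdia2, the pancreatic disulphide isomerase, was the highest of these at 1321 and 820 CPM (0.69), while the chaperone Hspa5 had 985 and 1255 CPM (-0.35).

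Lists built around the other score genes also held 0 higher genes. As 0.489% of all genes were higher, a count of 0 in lists this short is near that share. Around S100g, 11 calcium genes held 0 higher and 2 lower, namely the calcium pump Atp2a3 (-1.30) and the sodium-calcium exchanger Slc8a1 (-2.22). Only 5 of the 11 met the 200-UMI minimum in the members alone, and 0 of these were lower. Both lower genes thus reached it through the remaining cells, which favours a low ratio. The cholecystokinin receptor Cckar, which triggers acinar secretion, had 236 and 168 CPM (0.49). Around Thbs1, 9 matrix and TGFβ genes held 0 higher and 1 lower, with a median of -0.26. Of these 9, 5 met the minimum in the members alone, and 0 of the 5 were lower. Timp3, an inhibitor of matrix proteases, had 149 and 148 CPM. Around Hsd17b13, 7 lipid droplet genes held 1 lower, the droplet coat protein Plin2 (-1.09, but -0.21 without the 22 stroma-rich cells), and its relative Hsd17b11 had 39.3 and 28.9 CPM (0.44).

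The 15 highest genes outside the score held 4 trypsinogens, Try5, Prss3, Prss2 and Try10, and 11 genes of much lower level. Serpina7, the thyroxine-binding globulin, had the highest ratio of all, 2.56 (2.22 to 2.90), at 23.2 CPM in members and 3.94 CPM in remaining cells. It was found in 81 members, and 5 cells held 34.4% of its member UMIs. Fbp2, the muscle fructose bisphosphatase, had 11.8 and 2.88 CPM (2.04) and Anxa10, an annexin, 11.1 and 2.96 CPM (1.91). P3h2, a collagen prolyl hydroxylase, followed at 11.8 and 3.41 CPM (1.79), and Habp2, a hyaluronan-binding serine protease, at 13.2 and 4.18 CPM (1.66). Tinag, a basement membrane protein, had 13.5 and 4.55 CPM (1.57). UMIs of P3h2 were found in 89 members, of Habp2 in 109 and of Tinag in 111, so none of them was seen in every member.

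Ugt2b34, a glucuronosyltransferase, had 25.05 and 8.29 CPM (1.60), Osgin1, an oxidative stress response gene, 27.4 and 9.38 CPM (1.55), and Gjb2, the gap junction protein connexin 26, 40.1 and 15.1 CPM (1.41). Phlda3, a p53 target, had 9.14 and 3.29 CPM (1.47) with 45.4% of its member UMIs in 5 cells. Acta1, the skeletal muscle actin, rested on 8 members and 9 remaining cells, and 5 cells held 99.0% of its member UMIs, so its ratio of 1.54 says little about the members as a whole. After thinning, the share of members with a UMI was 7.60% for Serpina7, 11.2% for Ugt2b34 and 19.2% for Gjb2, so each of these marks a part of the members at this depth.

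Among the 10 genes whose level followed the score most closely over all 975 cells, at 5000 UMIs per cell, 9 are given here, and these were enzymes and secretory genes. Pearson r was 0.73 for Try5, 0.69 for Spink1 and Prss2, 0.65 for Cpb1, 0.58 for Cela2a, 0.55 for Cpa1, 0.47 for Clu, 0.44 for Pdia2 and 0.44 for Try10. Clu, which encodes the secreted chaperone clusterin, had 3498 CPM in members and 1946 CPM in remaining cells (0.85). The cells share 1 library and these abundant transcripts share each cell's total, so the correlations are descriptions.

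The lowest genes were of a different kind, and all of them met the minimum of 200 UMIs through the remaining cells. Klk1b4, Klk1b5 and Klk1b8, kallikrein-family proteases, had 1, 2 and 2 UMIs in the members against 1020, 1647 and 732 in the remaining cells, with log2 ratios of -9.07 (-14.38 to -6.59), -8.77 and -7.60. Among remaining cells they were highest in a cluster led by Klk1 and Atp4b, at 302, 487 and 218 CPM, which held no member. Most others are known from macrophages: Ctss, Mrc1, C1qb, Lyz2, C1qc, Mpeg1, Stab1 and Tyrobp had 1 to 11 UMIs in the members and log2 ratios from -8.96 to -7.21. Vcam1, an adhesion molecule, had 3 UMIs in members and 1410 in remaining cells, the matrix proteoglycan Dcn 1 and 773, all of the latter in 3 cells, and Ctla2a 1 and 446.

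These values moved with the stroma-rich cells. Without the 22 cells, 467 of 9482 genes (4.93%) were at least 2-fold lower in members. The ratio of Lyz2 then went from -7.59 to -1.14, C1qb from -7.72 to -0.75, Vcam1 from -7.96 to -0.33 and Dcn from -8.67 to -0.11, while Klk1b4 stayed at -9.10 and Ctla2a at -7.32. Of the 14 immune markers 6 were at 0 in the members, of 6 endothelial markers 3 and of 7 fibroblast markers 5. Summed immune markers ran from 0 through a median of 0 to 203 CPM in single members and to 35871 CPM in remaining cells. Endothelial markers reached 96.0 CPM in a member and 362 CPM in a remaining cell, and fibroblast markers 111 and 33598 CPM. On these lists 4 immune, 1 endothelial and 2 fibroblast genes reached 200 UMIs, and 0 of them did so in the members alone, so their lower ratios are no independent result. Without the 22 cells 1 immune gene reached it. Of 3 erythroid genes with enough UMIs 0 were at least 2-fold lower in CPM, with a median of -0.88. With each cell weighted equally all 3 were, with a median of -1.99, but 0 of them met the minimum in the members alone.

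Neuroendocrine genes were lower in members with and without the stroma-rich cells. Of 13 genes with enough UMIs 11 were at least 2-fold lower in members, beside 6.01% of all genes, with a median log2 ratio of -2.98 and of -3.01 without the stroma-rich cells. The 200-UMI minimum was met in the members alone by 7 of the 13, and 5 of these 7 were lower. Chga, a core protein of hormone granules, had 1107 CPM in members and 4866 CPM in remaining cells (-2.14), Chgb 29.9 and 275 CPM (-3.20), the trefoil peptide Tff3 41.0 and 363 CPM (-3.15) and Snap25, a membrane fusion protein, 32.3 and 152 CPM (-2.24). The 2 that were not lower by that measure were Cpe, a prohormone-processing enzyme, at 266 and 306 CPM (-0.20), and the transcription factor Insm1 at 36.5 and 44.8 CPM (-0.29). At 5000 UMIs per cell the list gave a median of 3 UMIs in members, from 0 to 92, and of 24 in remaining cells, from 0 to 242. Members with neuroendocrine RNA thus existed, and the ranges overlapped. Of the 8 islet hormone genes 0 reached 200 UMIs.

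Of 11 ductal genes 0 were higher and 3 lower, Krt7 (4.07 and 54.4 CPM), Epcam (294 and 727 CPM) and Muc1 (8.84 and 20.1 CPM). In the members alone 8 of the 11 met the 200-UMI minimum, and of these only Epcam was lower, beside 6.01% of all genes. The keratins Krt8 (6116 and 6279 CPM) and Krt18 (4334 and 4241 CPM) and the transcription factor Sox9 (246 and 228 CPM) hardly differed. The 3 gastric genes with 200 UMIs reached them through the remaining cells, with 16, 10 and 116 UMIs in the members, so a low ratio was fixed by that minimum. They were the proton pump subunits Atp4b (1.23 and 101 CPM) and Atp4a (0.768 and 65.7 CPM) and the nuclear receptor Esrrg (8.91 and 46.0 CPM). Of 7 progenitor genes 0 were higher and 1 lower, Id2 (77.5 and 170 CPM).

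Checked against their label, the members carried acinar markers throughout. The acinar list summed to at least 51324 CPM in every member, with a median of 233138, against a median of 96504 and a lowest value of 367 CPM in remaining cells. Many remaining cells were therefore rich in acinar RNA too. Several acinar markers were nearly absent from the members, namely Ctrl at 0.54, Pnlip at 1.54, Ctrc at 0.845 and Cela3a at 0.384 CPM, and were under 25 CPM in remaining cells too, so the label holds for the trypsinogens and the main proteases and not for every acinar enzyme.

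Cell cycle genes differed little between members and remaining cells. The counts in this paragraph stand beside 0.489% higher and 6.01% lower of all genes. Of 40 S phase genes 0 were higher and 1 lower (Brip1), with a median of -0.46. Of 48 G2/M genes 0 were higher and 3 lower (Cenpf, Cdc20 and Kif23), with a median of -0.55. The 200-UMI minimum was met in the members alone by 28 of the S phase genes, 0 of them lower. It was met there by 33 of the G2/M genes, 2 of them lower. Mki67, a marker of cycling cells, had 114 and 162 CPM (-0.51), and Top2a, the topoisomerase of dividing cells, 108 and 147 CPM (-0.44). Of 11 p53 target genes Phlda3 was higher and Gdf15 lower, while Cdkn1a, the p21 cell cycle inhibitor, had 496 and 649 CPM (-0.39). Gdf15 was at -0.29 without the stroma-rich cells. Of 13 immediate early genes Fos (223 and 455 CPM) and Dusp1 were lower, with a median of -0.33. With enzymes left out of the totals, Fos (-0.81), Muc1 (-0.97) and Id2 (-0.91) were under 2-fold.

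For the question of the study, Mettl3 had 160 UMIs or 12.3 CPM in the members and 16.3 CPM in remaining cells (-0.41, -0.68 to -0.14), close to the median of all genes. Plk1, a mitotic kinase, had 62 UMIs in 24 members or 4.76 CPM, against 9.14 CPM (-0.94, -1.37 to -0.53), and 48.4% of its member UMIs came from 5 cells. Of 13 genes of the m6A machinery with Plk1, 0 were higher and 0 lower, beside 0.489% and 6.01% of all genes, with a median of -0.41. Alkbh5, an m6A demethylase, had 138 and 153 CPM.

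The members spread over several expression states. EL1 cells were clustered without the 7 score genes, which gave 14 clusters, and 115 members (46.0%, exact interval 39.7% to 52.4%) fell into 1 of them, numbered 0, together with 45 remaining cells. Outside the score genes, this cluster was led by Try5, Prss2, Cldn4, Try10 and Prss3. A further 30 members fell into cluster 2 (led by Igfbp5, Meg3 and Fst), 22 into cluster 3 (histone genes, Ube2c and Top2a), 21 into cluster 12 (Ccnb2, Cenpa), 20 into cluster 11 (with Eln, Ccne1 and Pcna), 15 into cluster 6 (with Bnip3, Car9 and Eno1) and 15 into cluster 8 (Fos, Hspa1b, Hspa1a). Members made up 71.9% of cluster 0, 67.7% of cluster 12 and 62.5% of cluster 11. In clusters 2, 3, 6 and 8 their share was 22.2% to 29.7%, near the 25.6% among all filtered EL1 cells. Clusters 4 (Klk1, Atp4b, Klk1b5), 7 (Obp2a, Serpina1d, Ahsg) and 13 (Lyz2, Apoe, C1qb) held 0 members. The share in the main cluster depended on how cells were grouped: it was 32.0% when acinar and granule genes were also left out of clustering and 29.2% without the cells of shared barcodes.

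**Figure D4:**
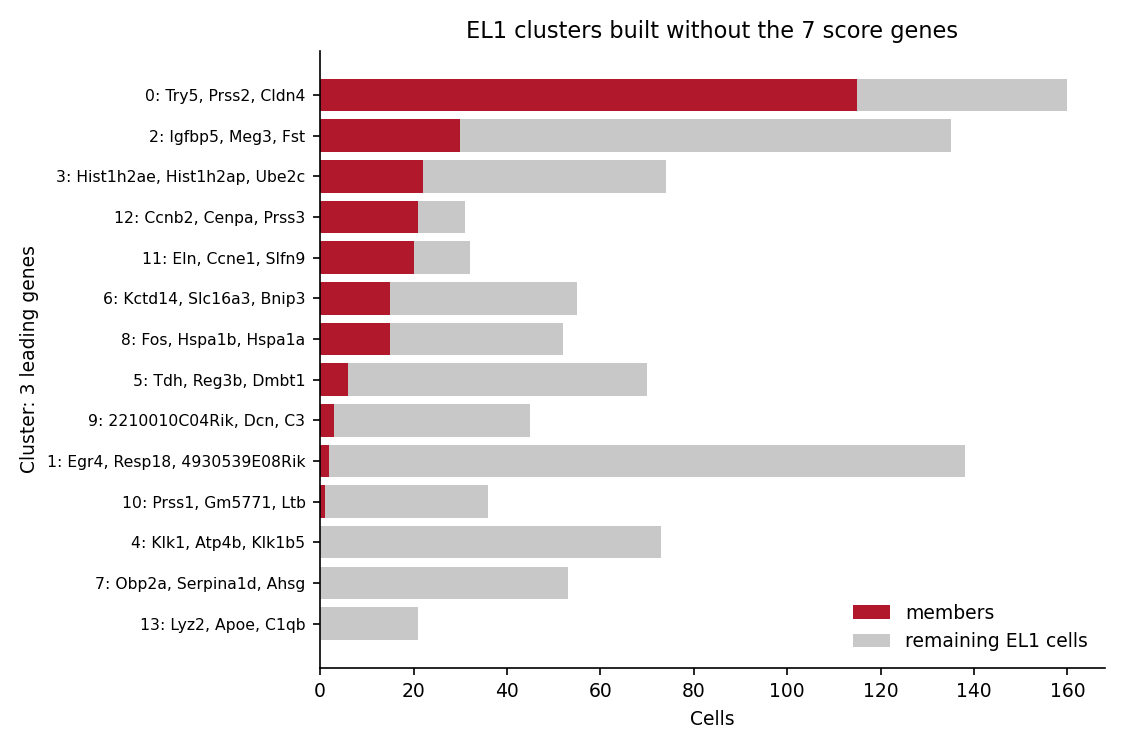
Number of EL1 cells in each of the 14 clusters built without the 7 score genes, with members in red and remaining cells in grey, and each cluster named by its number and 3 leading genes outside the score. Cluster 0 holds 115 members, and 6 further clusters hold 15 to 30 members each.

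Across the 7 clusters with at least 10 members, Gm2663 stood between 16226 and 21396 CPM, Hsd17b13 between 623 and 848 CPM and 1810009J06Rik between 19541 and 29836 CPM in the members. S100g and Thbs1 covered a wider range. S100g ran from 106 CPM in the members of cluster 2 to 413 CPM in those of cluster 8, and Thbs1 ran from 162 CPM in cluster 8 to 706 CPM in cluster 11. Thbs1 was found in 26.7% of the members in cluster 8 and 81.0% in cluster 12, and S100g in 45.0% in cluster 11 and 86.7% in cluster 6. The clusters held 15 to 115 members each, so these shares are coarse.

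Members inside and outside the main cluster differed most in mitotic genes. Of 5927 genes with enough UMIs 167 (2.82%) were at least 2-fold lower inside, with a median log2 ratio of -0.20. Of 33 G2/M genes 29 were at least 2-fold lower inside, with a median log2 ratio of -3.96, and of 28 S phase genes 9 were lower, with a median of -0.57. Mki67 had 9.75 CPM inside (in 31 members) and 217 CPM outside (in 78 members), and Top2a had 84 UMIs inside and 1324 outside. Of 7 neuroendocrine genes 5 were lower inside, with a median of -1.37. All 7 score genes were within 2-fold, with S100g at 289 CPM inside and 189 CPM outside and Thbs1 at 509 and 316 CPM. At 5000 UMIs per cell, members in the main cluster had a median of 4 G2/M UMIs, from 0 to 14, and those outside 7, from 1 to 108. Since clustering used these same genes, the differences describe the clusters and test nothing.

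The same score was then taken in WTg, a library the selection of members had not used, with its 250 highest cells against its remaining 498. Those cells had a lowest score of 0.833, far below the EL1 limit, so the sets match in number and not in level. Mettl3 marked the libraries as labelled, at 65.7 CPM in WTg and 14.9 CPM in EL1. Whole-library levels are given for some of the score genes, and these were lower in WTg. In WTg and EL1, S100g had 12.7 and 89.0 CPM, Thbs1 40.6 and 179 CPM, Myo5c 4.20 and 70.4 CPM, and 1810009J06Rik 811 and 14419 CPM. With 1 library each, these values are not tested.

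S100g UMIs were found in 24 of the 250 high-scoring WTg cells, at 29.5 CPM against 0.885 CPM in the other WTg cells, a log2 ratio of 5.06 (4.36 to 5.85). Thbs1 had 54.8 and 30.7 CPM there (0.84) and Hsd17b13 356 and 146 CPM (1.29). Gm2663 reached 8886 against 1160 CPM (2.94). 1810009J06Rik reached 1708 against 183 CPM (3.22) and was found in 227 of the 250 cells. Most high-scoring WTg cells thus had no S100g or Thbs1 UMI, the latter being found in 44, and Myo5c had a ratio of -0.38 with an interval from -0.91 to 0.15.

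Of the 15 highest EL1 genes 10 had at least 200 UMIs in WTg, and all 10 were above 0 there, from 0.21 to 1.22. Only Ugt2b34 (1.22) and Gjb2 (1.12) were at least 2-fold higher, in a library where 18 of 9091 genes (0.198%) were. Try5 had 0.84, Prss3 0.94, Prss2 0.64 and Try10 0.45. The 5 genes below 200 UMIs held Anxa10 (3.25, 2.56 to 4.01) and Serpina7 (interval 0.93 to 2.08), and Fbp2, P3h2 and Phlda3, whose intervals included 0.

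**Figure D5:**
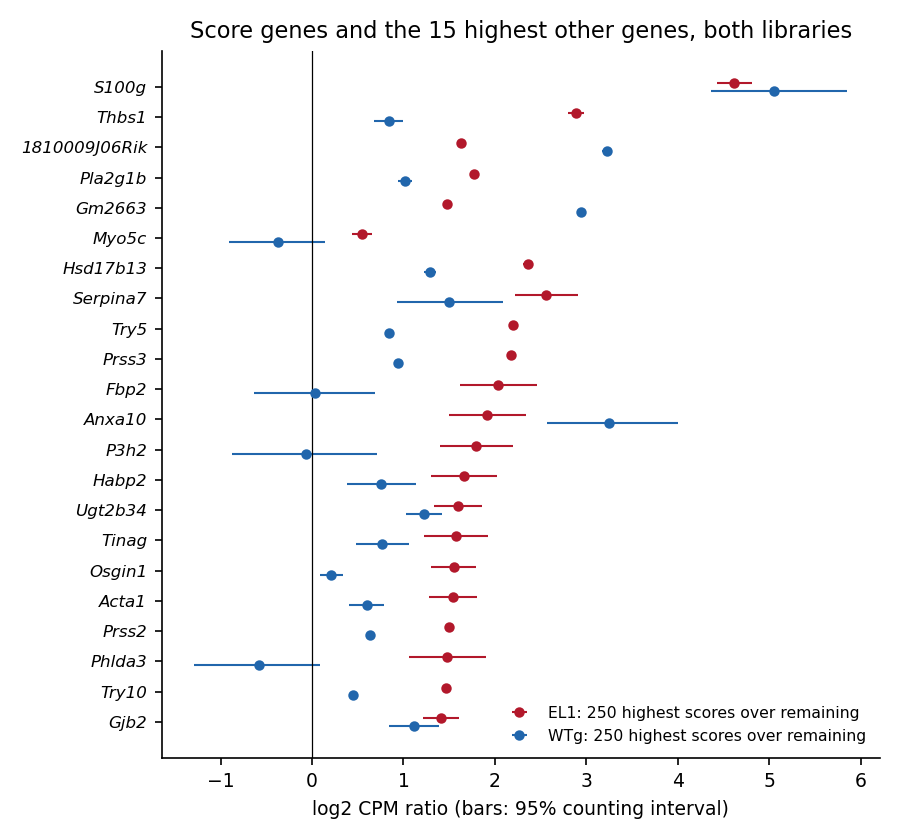
Log2 CPM ratio of the 250 highest-scoring over the remaining cells, in EL1 (red) and WTg (blue), for the 7 score genes and the 15 highest other genes of EL1, with bars for the 95% counting interval. All 22 EL1 points lie right of 0, and in WTg Myo5c, P3h2 and Phlda3 lie left of it with intervals that include 0.

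On the lower side, 389 of 9091 WTg genes (4.28%) were at least 2-fold lower in the high-scoring cells. Of the 15 lowest EL1 genes 14 had at least 200 UMIs in WTg and 12 were lower there. Many of the 15 are known from macrophages, and stroma-rich cells were not left out of the WTg comparison. All 7 immune markers with enough UMIs were lower in WTg too, so the shared low ratios are no independent result. Klk1b4 was higher (1.14) and Klk1b5 was at 0.26, so these kallikreins were not lower in the high-scoring WTg cells. Of 14 neuroendocrine genes 5 were lower, with a median of -0.85, against -2.98 in EL1. The 9 trypsinogens outside the score summed to 9.86% of UMIs in the high-scoring and 5.87% in the other WTg cells. Several copies that were scarce in the EL1 members were abundant in the high-scoring WTg cells, with Prss1 at 6070 and 22.4 CPM, Gm5771 at 1164 and 13.8 CPM and 2210010C04Rik at 2109 and 91.0 CPM in WTg and EL1. Strain background and genotype cannot be told apart as their source.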

How the data were processed

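Dissociated pancreatic tumours of EL1 and WTg mice were run with the 10x Chromium single cell 3′ kit, 1 library per genotype. The authors made UMI counts per gene and barcode with Cell Ranger (6.0.2 in the matrix header), and the submitters' processing notes name GRCm38. The deposited counts were used unnormalized. The authors' dense count tables of the same barcodes served only as an alternative. Cells were filtered, scored and ranked as described in the report. UMIs were summed over members and over remaining cells and divided by the total (CPM), with 95% intervals that were exact Poisson for levels, conditional binomial for ratios and Clopper-Pearson for shares. No test was run, because each genotype had 1 library and the members were chosen by measured values. Genes needed 200 UMIs over the cells compared, and a count of 0 was set to 3 counts, or 0.231 CPM in the members. Clustering used scanpy 1.11.5 (2000 variable genes, 30 principal components, 15 neighbours) and leidenalg 0.10.2 at resolution 1. Scrublet doublets were kept, with an expected rate of 2%. Ratios, intervals and the ranking were tested on simulated data. Coordinates and transcripts are from GENCODE M21.

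Named genes were the 7 score genes, the 15 highest and 15 lowest ratios whose direction was the same in CPM, with each cell weighted equally and with enzymes left out of the totals, the 10 genes most correlated with the score, Mettl3 and Plk1, and the most abundant members of each list. Genes named beyond this rule are lower or higher list members and score-related values chosen after they were seen. The members and all lists were chosen with earlier results of these data known. Alternatives changed the cell filter, the number of members, the score, the gene minimum, the scaling and the clustering. Leaving out shared barcodes was added after seeing the data. Some genes that meet the rule are not reported here.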

Additional observations from a re-analysis of the deposited data

Results flagged for a closer look

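Klk1b4 and Cpa1, whose ratios in EL1 and WTg had different signs, were looked at again. Other genes with different signs, such as Klk1b5 and Myo5c, are given above. The difference between the libraries was not tested. Klk1b4 had a log2 ratio of 1.14 in the high-scoring over the remaining WTg cells and -9.07 in EL1, where it rested on 1 UMI in the members. Cpa1, a procarboxypeptidase, had -0.02 in WTg and 0.75 in EL1, from 17295 and 17516 CPM in WTg, which is close to no difference there.

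Signal also lay outside the cells compared. Among the 646 EL1 barcodes that the filter removed, 18 scored at or above the lowest member, with a median of 2963 UMIs and 6.24% mitochondrial UMIs. Of these, 11 failed only the UMI minimum and 7 had over 20% mitochondrial UMIs.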

How the results depend on the processing

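No paired analysis was possible because each genotype had 1 library. The 7 enzyme and granule genes higher in members stayed between 6 and 9, and the 11 lower neuroendocrine genes between 8 and 13, over all 20 alternatives each. The 47 higher genes became 30 with 150 members, 72 with acinar and granule genes left out of the totals, 80 with a minimum of 50 UMIs and 13 with 1000. The 578 lower genes became 1350 with 50 UMIs and 144 with 1000, since those minimums change how many genes are counted. Leaving each score gene out of the score in turn gave 36 to 45 higher and 520 to 587 lower genes.

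The share of members in their main cluster moved in 5 of 18 alternatives. From 46.0% it went to 33.6% with cells of at least 1000 UMIs, 36.0% with 400 members, 16.4% at resolution 2, 32.0% when acinar and granule genes were also left out of clustering and 29.2% without the cells of shared barcodes. The 2 named genes that were also 2-fold higher in WTg became 1 with cells of at least 1000 UMIs, after thinning, without 1810009J06Rik or Myo5c in the score or with a gene minimum of 1000 UMIs, and 0 without Pla2g1b or Hsd17b13. The cause of these changes was not tested. Depth limits genes of few UMIs such as Plk1, and no interval covers the spread between animals.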
